A study of Mus musculus with 4 samples.

Results

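The Cd300 genes encode a family of surface receptors with a single immunoglobulin-like domain, carried mostly by myeloid cells. Every gene whose symbol starts with Cd300 was taken, on probe sets annotated to exactly 1 gene symbol, and 8 of the 19938 genes measured in this way met that rule (Cd300a, Cd300c, Cd300c2, Cd300e, Cd300lb, Cd300ld, Cd300lf and Cd300lg). Of these, 7 stood in the list that proposed the family, and Cd300c2 was added by the symbol rule. Each of the 8 had a single such probe set. The family was chosen by its log2 differences between the 2 LPS and 2 PBS arrays, so those differences are described here and not tested.

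RNA of bone marrow (BM) cells from C57BL/6N mice was hybridized to 4 Affymetrix Mouse Gene ST arrays, 1 per sample. The LPS group held replicates 1 and 2, from mice given 1 intraperitoneal injection of 50 µg lipopolysaccharide (LPS, a mixture from E. coli K12 and S. minnesota), and the PBS group replicates 1 and 3, from mice given phosphate-buffered saline, with cells taken 8 h later in both. No genetic change, age or sex is given in the labels. The labels call the samples replicates without saying whether each is 1 mouse or a pool, so the spread between them may be partly technical. Values are log2 expression values made by the authors with RMA, and a difference is the LPS mean minus the PBS mean on that scale, with the standard error (SE) that limma's moderated variance gives. The array medians over genes lay between 8.01 and 8.03. The number of markers above the upper quartile of genes on every array was 10 of 10 for neutrophils, 5 of 5 for B cells, 4 of 4 for erythroid cells, 5 of 9 for macrophages, 4 of 7 for monocytes and 0 of 7 for dendritic cells, a rough check of the labelled tissue, since levels of different probes are not comparable. In bulk RNA, fewer cells of a type and less RNA per cell cannot be told apart.

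The family is called paired because its members share similar outer domains but carry opposite signals. Inhibitory members have a long cytoplasmic tail with tyrosine motifs (ITIMs) that recruit phosphatases such as SHP-1, and activating members have a short tail and couple through a charged transmembrane residue to adaptors with ITAM motifs, such as DAP12 and the Fc receptor gamma chain. Their known ligands are largely lipids exposed on dying cells or in membranes, such as phosphatidylserine, phosphatidylethanolamine and ceramide. In mouse myeloid and mast cells the pairs set thresholds for cytokine release and for uptake of dead cells.

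Cd300e, Cd300lb and Cd300ld, each with an activating role, held the largest differences, and these ran in opposite directions. Cd300lg, an endothelial member, had -0.60, and Cd300c2, also coupled to DAP12, had -0.26. Cd300e, whose human counterpart is a DAP12-coupled receptor of mature monocytes, had log2 values of 8.71 and 8.38 on the LPS arrays, against 7.56 and 7.86 on the PBS arrays. Each LPS array was higher than either PBS array, with group means of 8.55 ± 0.23 in LPS and 7.71 ± 0.21 in PBS (SD, n = 2 each). The difference was 0.84 (SE 0.142), a 1.79-fold higher mean in LPS, and ranked 236 from the highest of the 19938 genes. Cd300lb, a DAP12-coupled receptor that in the mouse binds LPS and joins a complex with Tlr4 and Cd14, had log2 values of 7.93 and 7.83 on the LPS arrays, against 8.90 and 8.62 on the PBS arrays. Both LPS arrays were lower than both PBS arrays, and the LPS arrays differed from each other by 0.10. The means were 7.88 ± 0.07 in LPS and 8.76 ± 0.20 in PBS (SD, n = 2 each), and the difference of -0.89 (SE 0.115) ranked 38 from the lowest.

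Cd300ld, which in the mouse couples to the Fc receptor gamma chain, had log2 values of 8.54 and 8.18 on the LPS arrays, against 9.45 and 9.06 on the PBS arrays. The groups did not overlap, although this gene had the widest gap between replicates of the family, 0.36 in LPS and 0.39 in PBS. Its means were 8.36 ± 0.25 in LPS and 9.25 ± 0.28 in PBS (SD, n = 2 each), a difference of -0.89 (SE 0.161) that ranked 35 from the lowest. Cd300c2, known in the mouse as MAIR-II and coupled to DAP12 on macrophages and some B cells, had 9.08 and 8.89 on the LPS arrays, against 9.21 and 9.29 on the PBS arrays. The LPS arrays were again the lower ones, by a smaller amount of -0.26 (SE 0.100, 95% interval -0.50 to -0.03). Cd300c had 9.43 and 9.36 on the LPS arrays, against 9.35 and 9.45 on the PBS arrays. Its groups overlapped, and the difference was 0.00 (95% interval -0.21 to 0.21).

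**Figure D1:**
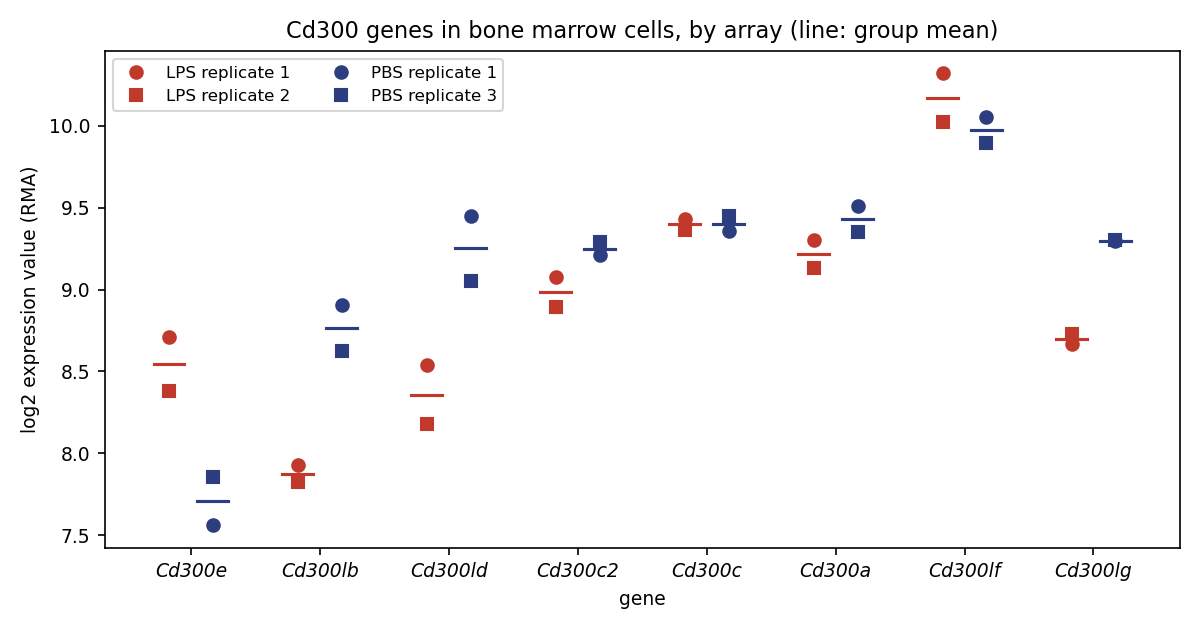
Log2 expression value of the 8 Cd300 genes on each array, with LPS arrays (red) left of PBS arrays (blue), circles and squares for the 2 replicates and lines for group means. Cd300e is higher on both LPS arrays, Cd300lb, Cd300ld and Cd300lg are lower on both, and Cd300c and Cd300lf overlap. Levels of different genes come from different probes and are not comparable.

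The inhibitory members Cd300a and Cd300lf had differences of -0.21 and 0.20, of a size with the -0.26 of Cd300c2. Cd300a, which carries ITIMs and binds phosphatidylserine and phosphatidylethanolamine, had 9.30 and 9.13 on the LPS arrays, against 9.51 and 9.35 on the PBS arrays. The LPS arrays lay below the PBS arrays with a margin of less than the gap between replicates, and the difference was -0.21 (SE 0.104, 95% interval -0.45 to 0.03). Cd300lf, the other receptor with ITIMs, binds ceramide in the mouse and serves there as the entry receptor of murine norovirus. It had 10.32 and 10.02 on the LPS arrays, against 10.05 and 9.90 on the PBS arrays, so that LPS replicate 2 lay within the PBS range. The difference was 0.20 (SE 0.121, 95% interval -0.08 to 0.48).

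Cd300lg stands apart in the family by its cell type. It encodes nepmucin, an adhesion molecule of vascular endothelium that supports lymphocyte binding. It had 8.67 and 8.73 on the LPS arrays, against 9.30 and 9.30 on the PBS arrays. The groups did not overlap, and replicates agreed within 0.06 in LPS and 0.0026 in PBS. Means were 8.70 ± 0.04 in LPS and 9.30 ± 0.0018 in PBS (SD, n = 2 each), a difference of -0.60 (SE 0.0871) that ranked 149 from the lowest.

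Across the family, 4 of 8 genes passed limma's adjusted p under 0.05 over all genes, with 1 higher (Cd300e) and 3 lower (Cd300lb, Cd300ld and Cd300lg) in LPS, where 3.66% of all genes passed, 2.39% higher and 1.27% lower. Groups did not overlap in 6 of 8, with 1 higher and 5 lower in LPS, where 44.9% of all genes had groups apart, 20.4% with LPS above and 24.5% with LPS below. The family was picked on this contrast, so nothing is read from these shares. The median difference was -0.24 over the 8 genes and -0.01 over all genes. When the limma fit covered all 35556 probe sets, 0 of the 8 passed, with the same differences, so all 4 calls end under that setting.

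The promoters of the members with the largest differences are shown with Cd300ld3, a close copy of Cd300ld, because they let the copies be set beside the genes that moved. Each line holds the 250 bases before the RefSeq transcript start, 5′ to 3′ on the gene's own strand (all minus strand, GRCm38.p6), and capitals mark matches to the motifs spelled out after the lines. Cd300e lies at chr11:115062040-115062289, Cd300lb at chr11:114934372-114934621, Cd300ld at chr11:114989887-114990136 and Cd300ld3 at chr11:115048331-115048580.
Cd300e: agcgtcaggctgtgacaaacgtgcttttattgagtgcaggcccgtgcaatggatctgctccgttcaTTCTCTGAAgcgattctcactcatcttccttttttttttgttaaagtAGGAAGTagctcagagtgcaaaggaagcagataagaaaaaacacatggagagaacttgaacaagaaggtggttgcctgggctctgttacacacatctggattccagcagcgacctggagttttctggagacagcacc
Cd300lb: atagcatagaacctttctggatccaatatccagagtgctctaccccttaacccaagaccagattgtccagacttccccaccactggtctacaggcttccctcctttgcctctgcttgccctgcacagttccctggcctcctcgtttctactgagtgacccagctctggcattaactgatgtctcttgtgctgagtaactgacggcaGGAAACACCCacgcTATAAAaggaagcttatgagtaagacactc
Cd300ld: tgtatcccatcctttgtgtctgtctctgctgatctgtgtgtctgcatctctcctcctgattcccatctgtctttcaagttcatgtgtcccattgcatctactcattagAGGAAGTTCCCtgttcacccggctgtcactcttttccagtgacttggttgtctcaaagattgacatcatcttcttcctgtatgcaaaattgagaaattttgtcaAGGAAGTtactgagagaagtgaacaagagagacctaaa
Cd300ld3: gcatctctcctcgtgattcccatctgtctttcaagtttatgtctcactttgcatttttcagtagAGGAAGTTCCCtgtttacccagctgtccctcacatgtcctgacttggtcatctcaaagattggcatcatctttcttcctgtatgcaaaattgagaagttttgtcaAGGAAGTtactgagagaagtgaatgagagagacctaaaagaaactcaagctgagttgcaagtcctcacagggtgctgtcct

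RefSeq promoters were at hand for 7 of the 8 members. The motifs searched on both strands were the ETS core AGGAAGT, AP-1 TGANTCA, C/EBP TTGCNNAA, STAT TTCNNNGAA, the interferon response motif (GAAA and GAAA parted by 2 bases of any kind) and NF-kappaB (GGG, 5 bases of any kind, then CC), and TATAAA was searched on the gene's strand. The ETS core was in 3 of the 7 windows, those of Cd300e, Cd300ld (2 matches) and Cd300c2, and in 7.69% of all 32851 promoter windows. Cd300ld alone among the 7 had 2 ETS matches, 142 to 136 and 38 to 32 bases before the start, and the first of them overlaps its NF-kappaB match. Cd300ld3 has the same pair, at 186 to 180 and 81 to 75. The STAT motif was in the Cd300e window alone among the 7 (7.02% of all windows). TATAAA was in that of Cd300lb alone, 30 to 25 bases before the start (7.59% of all windows). The NF-kappaB motif was in 4 of the 7 and in 45.8% of all windows, the interferon response motif in 1 (Cd300c) against 2.98%, the C/EBP motif in 1 (Cd300a) against 9.56%, and AP-1 in 0 against 6.75%. These are matches of letters in a window and show no binding.

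The Cd300ld copies give a comparison within the family. On 2 probe sets annotated jointly to Cd300ld3, Cd300ld4 and Cd300ld5, which the rule leaves out, the LPS arrays had 9.16 and 9.13, against 9.28 and 9.14 on the PBS arrays, and 8.88 and 8.86, against 9.05 and 8.88. Groups overlapped on both, and the differences were -0.06 (SE 0.0958) and -0.09 (SE 0.0993), against -0.89 for Cd300ld. The promoter window of Cd300ld was 74% identical to that of Cd300ld3 in a global alignment, with a longest shared run of 31 bases, and the windows of Cd300ld4 and Cd300ld5 were 100% identical to each other. Among the other pairs of the family the identity of Cd300ld was 49.2% with Cd300a and 52.4% with Cd300lb. How far the probes of Cd300ld also bind transcripts of its copies was not tested.

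In the RefSeq gene order, 11 Cd300 genes form 1 cluster on chromosome 11 that runs from Cd300a to Cd300lf, with Cd300lg outside it, beyond 146 other protein-coding genes on the same chromosome. Cd300a, Cd300lb, Cd300c, Cd300ld and Cd300c2 follow each other with differences of -0.21, -0.89, 0.00, -0.89 and -0.26, and Cd300e comes after the copies of Cd300ld, which were not analysed singly here, with 0.84, and Cd300lf last with 0.20. The only other gene measured within the cluster was Rab37, a small GTPase gene that overlaps Cd300lf, with 8.64 and 8.52 on the LPS arrays, against 8.84 and 8.88 on the PBS arrays (difference -0.28, SE 0.0913, adjusted p = 0.179 by limma). Both LPS arrays lay below both PBS arrays for Rab37, while the groups of Cd300lf overlapped.

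Neighbours of the cluster were set beside it. Of Rab37 and the 10 measured genes on each side, 21 in all, 0 passed limma's threshold (3.66% of all genes did) and 1 had an unadjusted p under 0.05 (15.8% of all genes did). Their differences ran from -0.28 to 0.21 with a median of -0.04, and the 2 with the highest levels were the ribosomal protein gene Rpl38 (-0.04) and Slc9a3r1 (-0.19). Genes were placed by symbol, and where their probe sets, such as that of Rpl38, lie in the genome was not checked. Without PBS replicate 3, Gprc5c, next to Cd300a, had 0.70 (adjusted p = 0.0286 by limma), against 0.21 with all arrays. Among 20 measured neighbours of Cd300lg, 1 passed, Tmem106a at 0.54 (SE 0.0981, adjusted p = 0.0261 by limma, but 0.116 over all probe sets and 0.121 without LPS replicate 1), with a median of 0.02 over the 20. Meox1 passed without PBS replicate 1 (0.52, adjusted p = 0.0264), against 0.36 with all arrays.

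**Figure D2:**
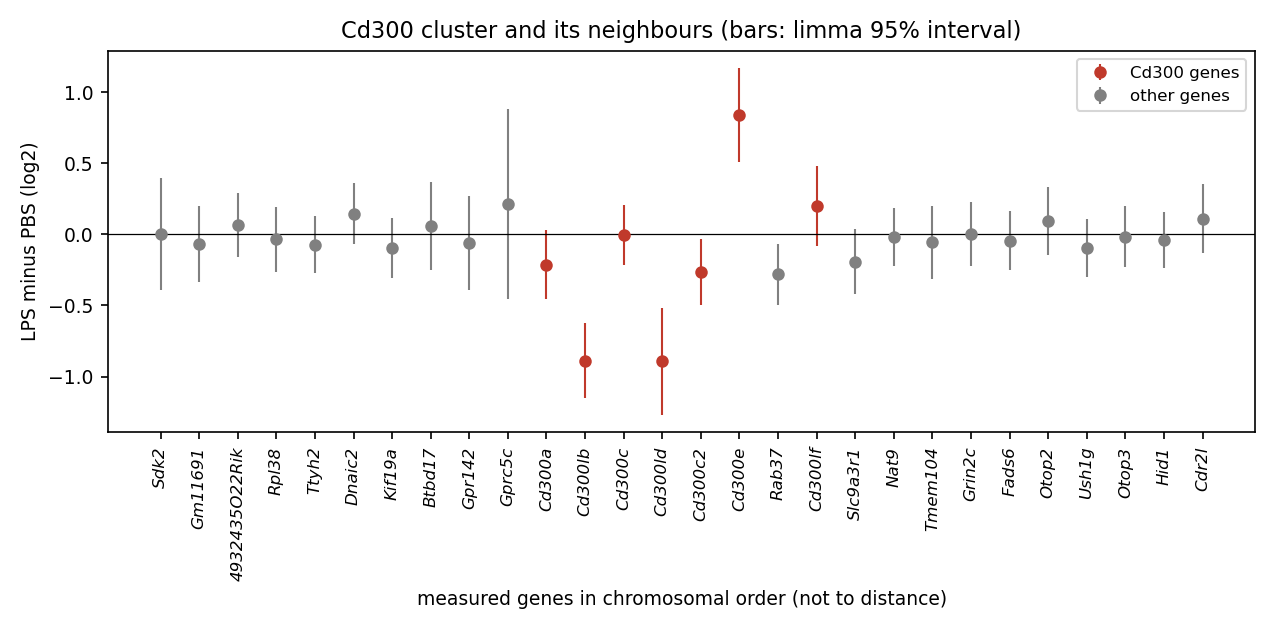
Difference between LPS and PBS (log2) with limma's 95% interval for the Cd300 genes of the cluster (red) and 21 measured neighbours (grey), in chromosomal order without distances. Cd300lb and Cd300ld lie near -0.89 and Cd300e at 0.84, while the neighbours lie between -0.28 and 0.21.

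The adaptors through which activating members signal did not pass the threshold. Tyrobp, which encodes DAP12, had 12.22 and 12.09 on the LPS arrays, against 12.45 and 12.47 on the PBS arrays (difference -0.31, SE 0.0924, adjusted p = 0.15 by limma). Hcst, which encodes DAP10, had 8.75 and 8.70 on the LPS arrays, against 9.22 and 8.94 on the PBS arrays (-0.36, SE 0.112, adjusted p = 0.163, and 0.0318 without PBS replicate 3). Both LPS arrays lay below both PBS arrays in each of these genes. Fcer1g, which encodes the Fc receptor gamma chain, had 12.80 and 12.85 on the LPS arrays, against 12.70 and 12.76 on the PBS arrays (0.10, SE 0.0880, adjusted p = 0.697). Of the 3 adaptors, 0 passed by limma and 2 had an unadjusted p under 0.05, as did 15.8% of all genes.

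The phosphatases that ITIMs recruit differed by 0.07 for Ptpn6 (SHP-1), -0.01 for Ptpn11 (SHP-2) and -0.09 for Inpp5d (SHIP-1), with 0 of 3 past limma's threshold and 0 with an unadjusted p under 0.05 (15.8% of all genes). Of 12 measured kinases and effectors of ITAM signalling 0 passed and 1 had an unadjusted p under 0.05, with differences from -0.22 to 0.15 and a median of 0.02. The 2 with the highest levels were Pik3r1 (-0.03) and Lcp2 (0.10). Of 4 partner receptors 2 were higher by limma, where 2.39% of all genes were. Cd14, the LPS co-receptor that Cd300lb joins, had 9.19 and 9.28 on the LPS arrays, against 7.36 and 7.23 on the PBS arrays (1.94, SE 0.0950, adjusted p = 4.28e-05 by limma). Il4ra, the interleukin-4 receptor chain that Cd300lf binds in the mouse, had 11.36 and 11.33, against 10.70 and 10.74 (0.62, SE 0.0869, adjusted p = 0.00767). Tlr4 (-0.01) and its cofactor Ly96 (-0.05) did not pass.

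Lipid ligands of the family are also bound or made by other proteins. Of 12 receptors and bridging proteins for phosphatidylserine, 2 fell and 0 rose by limma, where 1.27% and 2.39% of all genes did. Stab2, a scavenger receptor of sinusoidal endothelium, had 8.93 and 8.96 on the LPS arrays, against 10.22 and 10.18 on the PBS arrays (-1.26, SE 0.0869, adjusted p = 0.000206). Mertk, a receptor kinase for uptake of dead cells, had 9.42 and 9.20, against 9.85 and 9.85 (-0.54, SE 0.102, adjusted p = 0.0317, but 0.158 without LPS replicate 2 and 0.131 over all probe sets). The median of the 12 was 0.01, and Stab1 also passed without PBS replicate 1 (0.56, adjusted p = 0.0182). Of 12 enzymes of sphingomyelin and ceramide metabolism 0 passed limma's threshold and 2 had an unadjusted p under 0.05 (15.8% of all genes), with a median of -0.04, and the 2 with the highest levels were the ceramide synthase genes Cers2 (0.01) and Cers6 (0.09). Sgms2, a sphingomyelin synthase gene, had -0.36 with all arrays and passed without PBS replicate 1 (-0.68, adjusted p = 0.0182).

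Other paired receptors of myeloid cells, 28 measured, held 2 rises and 1 fall by limma, where 2.39% and 1.27% of all genes rose and fell, with a median of 0.00. The lectin receptor gene Clec4e, which encodes Mincle, had 10.75 and 10.82 on the LPS arrays, against 9.85 and 10.04 on the PBS arrays (0.84, SE 0.100, adjusted p = 0.00364 by limma). Clec4a1 had 10.77 and 10.75, against 9.92 and 9.94 (0.83, SE 0.0860, adjusted p = 0.00173). Clec4d, a lectin receptor gene of the same group, had 9.12 and 8.98, against 9.69 and 9.56 (-0.58, SE 0.0981, adjusted p = 0.0198, but 0.0892 without LPS replicate 2 and 0.0979 over all probe sets). Of genes that did not pass, Clec5a (0.69) passed without LPS replicate 2 (0.90, adjusted p = 0.0204) and without PBS replicate 3 (0.95, 0.00455), Siglece (0.43) without PBS replicate 1 (0.51, 0.0348), and Cd200r1 (-0.51) without LPS replicate 1 (-0.75, 0.011). Of 3 related genes with domains of this kind, Pigr, Fcamr and Fcmr, 0 passed by limma and 0 had an unadjusted p under 0.05. In all, 4 of 77 genes in these companion lists rose and 3 fell, beside 2.39% and 1.27% of all genes. An unadjusted p under 0.05 by limma was found for 11 of the 28 other paired receptors. The same held for 6 of the 12 phosphatidylserine receptors and bridging proteins and 2 of the 4 partner receptors, beside 15.8% of all genes.

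**Figure D3:**
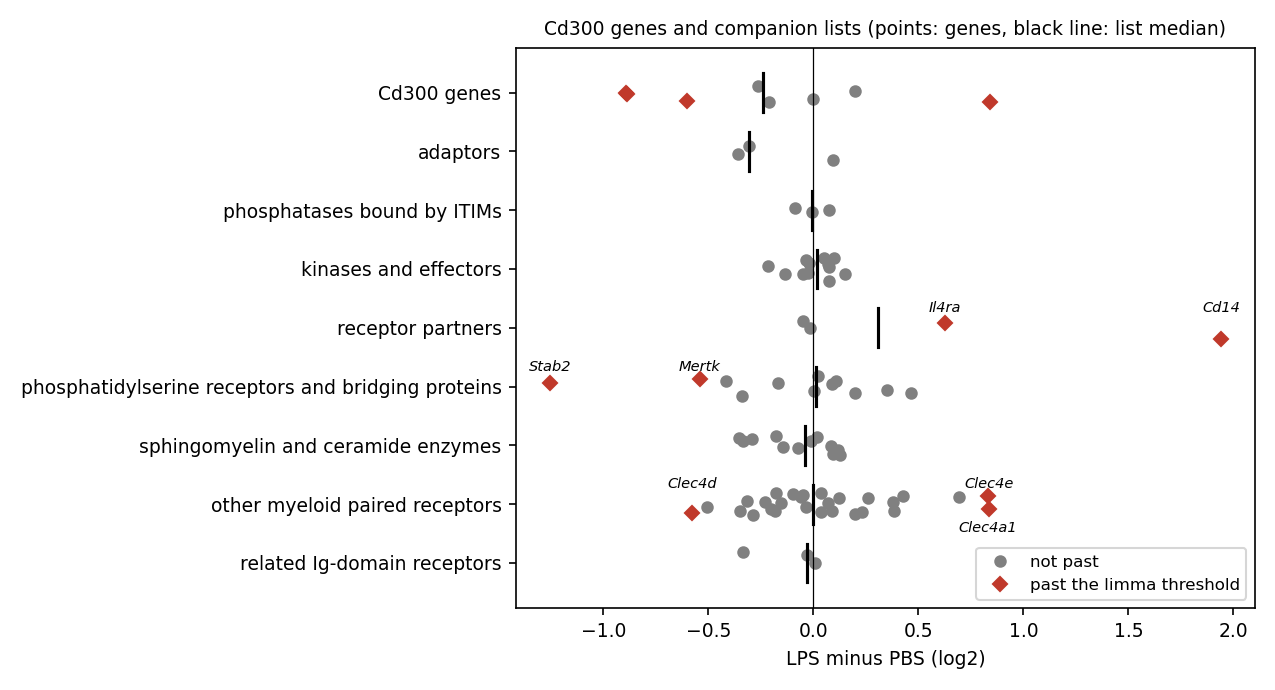
Difference between LPS and PBS (log2) of each gene in the Cd300 family and in 8 companion lists, with list medians as black lines and genes past limma's adjusted p under 0.05 as red diamonds. Cd14 (1.94) and Stab2 (-1.26) lie farthest out, while the adaptors, phosphatases and kinases have no gene past the threshold.

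Markers of cells in bone marrow were set beside the members, with shares of all genes of 2.39% higher and 1.27% lower by limma and of 20.4% with LPS above and 24.5% with LPS below. Neutrophil markers had LPS means below PBS means in 10 of 10 genes, with groups apart in 8 and 2 past limma's threshold, Ly6g (-1.14, adjusted p = 0.00935, but 0.082 over all probe sets) and Retnlg (-0.76, adjusted p = 0.0171, but 0.103 over all probe sets). Csf3r also passed without LPS replicate 1 (-0.77, adjusted p = 0.0179) and without PBS replicate 3 (-0.80, 0.00468), and Camp without PBS replicate 3 (-0.46, 0.0398). Their summed linear intensity was 57866 and 51902 on the LPS arrays, against 72044 and 65397 on the PBS arrays, the direction of Cd300ld and Cd300lb. The median marker difference was -0.25, against -0.89 for both genes, and S100a8 and S100a9 had -0.07 each. Monocyte markers had 2 rises of 7, Fcgr1 (1.57, adjusted p = 8.09e-05) and Ms4a6c (0.49, adjusted p = 0.0442, but 0.162 without LPS replicate 1, 0.0807 without LPS replicate 2, 0.0989 without PBS replicate 1 and 0.158 over all probe sets). The sum, which includes these 2 genes, was 10439 and 9608 in LPS, against 7770 and 8668 in PBS, the direction of Cd300e. Means were higher in LPS in 3 of the 7 markers and lower in 4, and the median of the list was -0.04. Csf1r had 0.11, Ccr2 -0.09 and Cx3cr1 -0.32. Without PBS replicate 3, Cx3cr1 (-0.46, adjusted p = 0.0445) and Ace (-0.50, 0.0282) passed as lower. Their part in the results was not tested.

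Endothelial markers, set beside Cd300lg, had 3 falls among 9, Stab2, Tek (-0.89, adjusted p = 0.00489) and Flt4 (-0.57, adjusted p = 0.0398, but 0.159 without LPS replicate 2, 0.0716 without PBS replicate 1 and 0.16 over all probe sets), and 0 rises, where 1.27% and 2.39% of all genes fell and rose. Emcn (0.52, groups apart) passed as higher without PBS replicate 3 (0.72, adjusted p = 0.00435). Pecam1 (0.11), Cdh5 (0.36) and Kdr (0.04) did not pass. Means were higher in LPS in 5 of the 9 markers and lower in 4, and the median was 0.04. The sum, which includes the 3 genes that fell, was 5974 and 5963 in LPS, against 6232 and 6335 in PBS. Macrophage markers had 1 rise, Adgre1 (0.56, adjusted p = 0.0286 by limma, but 0.0912 without LPS replicate 1, 0.055 without PBS replicate 1 and 0.124 over all probe sets), and 3 falls, Cd163 (-2.41, 1.91e-05), Mrc1 (-1.72, 5.71e-05) and Vcam1 (-0.79, 0.00309), among 9, with sums of 10614 and 9900 in LPS, against 13265 and 13512 in PBS. Cd5l passed as lower without LPS replicate 1 (-0.74, adjusted p = 0.00867) and Siglec1 without PBS replicate 3 (-0.46, 0.0418). Eosinophil markers had 1 fall of 6, Ccr3 (-1.59, adjusted p = 0.00137 by limma). By limma 0 passed among 7 basophil and mast cell, 5 B cell, 7 dendritic cell, 7 T and natural killer cell and 4 erythroid markers, with 0, 0, 4, 1 and 2 at an unadjusted p under 0.05 (15.8% of all genes). Without LPS replicate 1, Flt3 among the dendritic cell markers (-0.60, adjusted p = 0.0285) and Cd3g among the T cell markers (-0.70, 0.0401) passed as lower. Groups were apart with LPS below in 4 of 4 erythroid markers. An unadjusted p under 0.05 by limma was found for 6 of 9 endothelial and 6 of 9 macrophage markers. The same held for 5 of 10 neutrophil, 4 of 7 monocyte and 1 of 6 eosinophil markers, beside 15.8% of all genes. No marker is listed at 0, since the values are log2 intensities. The part of these lists in the Cd300 differences was not tested.

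**Figure D4:**
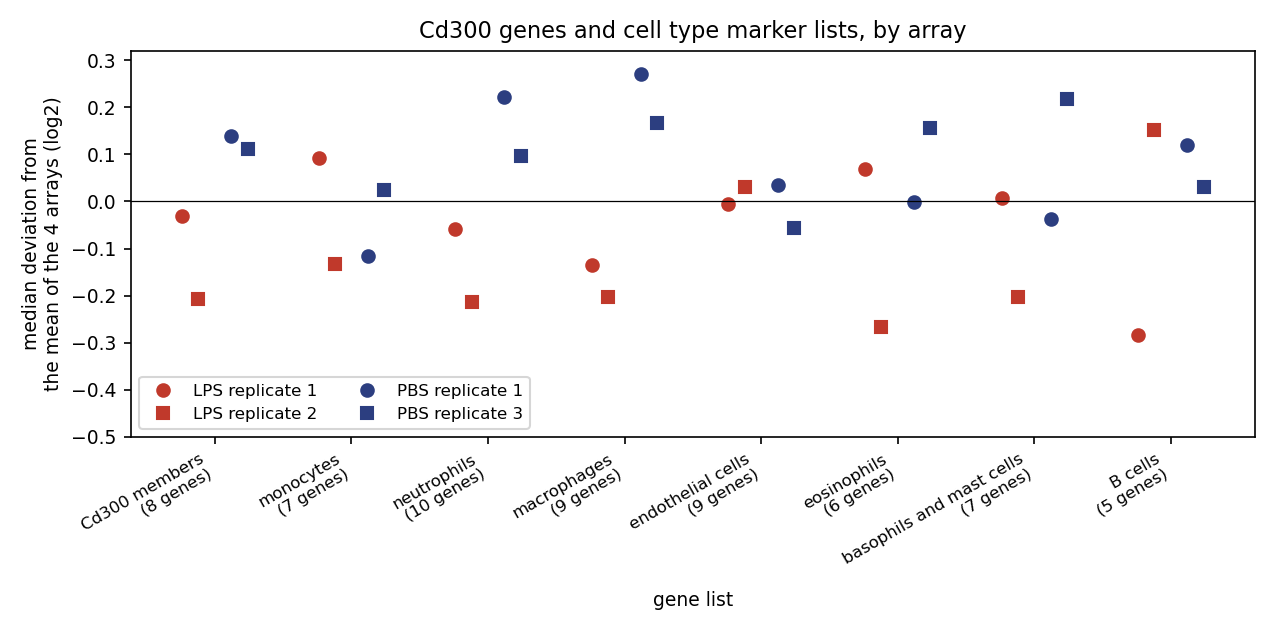
Median deviation of each gene list from the gene's own mean over the 4 arrays (log2), with LPS arrays (red) left of PBS arrays (blue). The Cd300 genes and the neutrophil and macrophage markers are lower on both LPS arrays than on either PBS array. The same order held for dendritic cell markers (-0.034 and -0.124 in LPS, 0.081 and -0.005 in PBS). It also held for erythroid markers (-0.137 and -0.058 in LPS, 0.155 and 0.049 in PBS). Dendritic cell, erythroid, and T and natural killer cell markers are not drawn. LPS replicate 1 has the lowest B cell value (-0.284).

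The LPS replicates also differed in the same direction in most members. LPS replicate 1 was above LPS replicate 2 in 7 of the 8 members, with Cd300lg the exception, while 50.3% of all genes were higher in replicate 1. The median deviation was also higher in LPS replicate 1 for monocyte (0.092 against -0.132) and neutrophil markers (-0.058 against -0.214). The same held for macrophage, eosinophil, basophil and mast cell, dendritic cell, and T and natural killer cell markers. The 28 other paired receptors summed to 47007 and 42876. B cell markers ran the other way, with a summed intensity of 10809 in LPS replicate 1 and 14979 in LPS replicate 2. Endothelial and erythroid medians were also lower in LPS replicate 1. PBS replicate 1 was above PBS replicate 3 in 4 of 8, while 53.9% of all genes were higher in PBS replicate 1. With each of the 4 arrays left out in turn, the difference of Cd300ld ran between -1.09 and -0.70, that of Cd300e between 0.67 and 1.00, and that of Cd300lb between -1.03 and -0.75.

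The genes closest to the members with the largest rise and fall were found by the Euclidean distance between the 4 array values, each gene centred on its own mean. For Cd300e the nearest was Prok2, at a distance of 0.0178, with 9.07 and 8.73 on the LPS arrays, against 7.90 and 8.22 on the PBS arrays. It was followed by Hspa1a (0.120), Slc17a1 (0.124), Sp140 (0.137) and Rrs1 (0.171). For Cd300ld the nearest were Trpm2 (0.101), Fmo5 (0.128), Chil5 (0.159), Abcc3 (0.194) and Retnlg (0.195). Within the family Cd300lb and Cd300ld lay 0.200 apart, Cd300a and Cd300c2 0.176, and Cd300e and Cd300ld 1.80. With 4 arrays in 2 groups, these distances describe the arrays and carry no test.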

How the data were processed

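RNA of 2 LPS and 2 PBS bone marrow samples was measured on 1 array each. The authors deposited 1 log2 value for each probe set and array, computed with RMA per the submitters' processing notes, which name no version. That the scale is log2 was judged by the range, 2.76 to 14.52. Of 35556 probe sets, 21789 had 1 gene symbol in the platform annotation and 1621 several. The brightest stood for a gene, which gave 19938 genes, with no filter on low values. LPS was set against PBS by lmFit and eBayes of limma 3.58.1 under R 4.3.3 (all 4 arrays, no covariate, two-sided, Benjamini-Hochberg over all genes, threshold 0.05), with 5.59 prior and 2 residual degrees of freedom. The number of arrays limits the precision, and an exact permutation test of 2 against 2 cannot go below p = 0.333.

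The members and lists were chosen with earlier results of these data known. Companion and cell type lists were named by every member past the threshold or, where none passed, by the 2 highest in level; adaptors, phosphatases and partners were all named. Rab37 and single markers were named after their values were seen. Promoters are from RefSeq (GRCm38.p6), aligned with Biopython 1.88. Protein features were not analysed here. Alternatives were each array left out, other scalings and eBayes settings, all probe sets, a level filter, a stricter threshold, unmoderated variances and mean probe sets.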

Additional observations from a re-analysis of the deposited data

How the results depend on the processing

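Among the 8 settings that keep all arrays, the Cd300 differences could move only under the 2 rescalings, where Cd300e lay at 0.85 and Cd300lg between -0.60 and -0.59. Leaving out 1 of 2 arrays moves a difference by a fixed share of the gap between replicates, so its size is no sign of stability, and Cd300lf ran from 0.05 to 0.35 that way. Among the members past the threshold none changed sign. Their groups did not overlap, so leaving out an array could not change it, and this is no sign of stability. Cd300c, near 0, changed sign in 4 settings. With 1 array left out, the difference of Cd300lg ran from -0.63 to -0.57. The members were chosen on this contrast, so their calls in such fits are not counted. All probe sets in the fit left 0 higher and 0 lower Cd300 genes, 63 lower among all probe sets (355 higher) and 1 lower companion gene. At an adjusted p under 0.01 there were 0 higher Cd300 genes and 2 lower, 286 higher and 58 lower among all genes, and 1 lower companion gene. The unmoderated linear model called 0 genes in every count (2185 of all genes at an unadjusted p under 0.05). With 1 array left out, the number of lower genes ran from 127 (without LPS replicate 2) to 423 (without PBS replicate 3), and was 382 without PBS replicate 1, around 254, and that of lower companion genes from 1 (without LPS replicate 2) to 4, around 3. The cause was not tested. Of the list medians with 1 array left out, 21 moved by more than the spread between replicates and 59 by less. A lone array was assumed to vary like the other group. Signal over background was not used here, so what dim probes limit is unknown. No paired analysis was done, because the labels give no pairing of LPS with PBS samples.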
